A study of Homo sapiens with 8 samples.

Results

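The genes for 7 acidic histone chaperones and nucleolar proteins, PTMA, SET, ANP32A, ANP32B, ANP32E, NCL and NPM1, were described as RNAs crosslinked to TIA1 and RBFOX2. All peaks that overlapped the 7 hg19 gene spans, given in whole kb, on the strand of the gene were taken. This gave 43 of the 7442 peaks in the data, 20 of 3215 TIA1 peaks and 23 of 4227 RBFOX2 peaks, and 6 of the 7 genes held at least 1. The genes were selected on the presence, log2 fold and −log10 p of these same peaks, so the number of peaks and their values are given as description and were not tested.

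The peaks came from eCLIP, a method that fixes RNA to its bound proteins with ultraviolet light, pulls down the protein and sequences the attached RNA. All libraries were from HEK293T, a human cell line of embryonic kidney origin that expresses SV40 large T antigen, crosslinked with 600 mJ. There were 2 TIA1 clip libraries against 2 TIA1 input libraries, and 2 RBFOX2 clip libraries against 2 RBFOX2 input libraries. Clip libraries were immunoprecipitated, with an antibody to the HA tag according to the labels, and inputs were not. A protocol text shared by all 8 libraries also speaks of beads carrying TIA1, and the replicates are called biological in the protocol and technical in the design text. A tagged protein may be present at a level other than its natural one, and expression of the tagged proteins was not analysed here.

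Each protein had 1 joint list of peaks for its replicates, so values per library and their spread were not at hand. Each peak carried the authors' log2 fold, read as clip over input, and −log10 p. Neither value is below 3 in these lists. A −log10 p of 400 is a limit and not a level, since the highest value under it was 86.8 for TIA1 and 83.8 for RBFOX2. Read depth is unknown, so a gene without a peak cannot be read as unbound.

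Histone chaperones carry histones and keep these basic proteins from binding nucleic acid at random, often through long stretches of aspartate and glutamate. PTMA encodes prothymosin alpha, a small, very acidic nuclear protein that binds linker histone. SET is a histone chaperone of the nucleosome assembly protein family and an inhibitor of a major cellular phosphatase. ANP32A, ANP32B and ANP32E are leucine-rich repeat proteins with acidic tails, and ANP32E removes a variant histone from chromatin. NCL (nucleolin) and NPM1 (nucleophosmin) are abundant nucleolar proteins that act in ribosome production. TIA1 prefers U-rich RNA, acts in splicing and gathers in stress granules. RBFOX2 regulates splicing through the element GCAUG.

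The acidic label was looked up in coding sequence. The genes were grouped under that label, so a high share of acidic codons follows from the grouping and is given as description. In the longest protein-coding GENCODE release 29 transcript of each gene, codons GAA, GAG, GAC and GAT, which encode glutamate and aspartate, made up 48.2% of PTMA codons. They made up 38.1% in ANP32E, 37.5% in ANP32B, 35.7% in ANP32A and 31.8% in SET. The nucleolar genes had less, 24.8% in NCL and 22.1% in NPM1. The median over 19308 coding sequences was 11.4%, and NPM1, the lowest of the 7 genes, still exceeded 98.9% of them. The longest unbroken runs of such codons in 5 of the genes, in capitals with 9 flanking bases on each side, show the acidic feature that the genes have in common:
PTMA, codons 61 to 68: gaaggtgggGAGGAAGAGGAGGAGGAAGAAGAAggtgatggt
SET, codons 233 to 243: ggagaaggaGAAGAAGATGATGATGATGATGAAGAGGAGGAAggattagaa
ANP32A, codons 168 to 178: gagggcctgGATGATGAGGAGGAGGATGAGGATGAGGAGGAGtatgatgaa
ANP32B, codons 219 to 233: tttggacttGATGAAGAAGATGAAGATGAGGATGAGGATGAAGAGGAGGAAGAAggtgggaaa
NPM1, codons 161 to 180: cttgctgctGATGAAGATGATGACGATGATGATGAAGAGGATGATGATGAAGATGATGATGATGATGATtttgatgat

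These 5 runs ranged from 8 codons in PTMA to 20 in NPM1, against a median of 3 over all coding sequences. Among these 5 genes PTMA thus had the highest share of acidic codons with the shortest run, and NPM1 the lowest share with the longest run.

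The preferred letters of TIA1 and RBFOX2 were then looked up in the same transcripts, on the sense strand. TTTTT was counted at every start position, so a run of 9 T counts as 5. It occurred 40 times in ANP32E, 39 in SET, 24 in ANP32A, 22 in NCL, 21 in PTMA, 10 in ANP32B and 3 in NPM1. Protein-coding transcripts within 10% of the same length had a median of 9 at the length of ANP32E, 6 for SET, 5 for ANP32A, 13 for NCL, 1 for PTMA, 2 for ANP32B and 2 for NPM1. All 7 genes thus lay above that median. The share of such transcripts holding TTTTT at all was 62.3% at the length of PTMA, 87.6% for SET, 84.5% for ANP32A, 67.9% for ANP32B, 92.5% for ANP32E, 94.2% for NCL and 73.1% for NPM1. PTMA stood out most, with more copies than 99.5% of the 913 transcripts of like length. NPM1 stood out least, with more than 52.9% of 1596. Set beside the peaks, ANP32E, ANP32A and NCL, with 40, 24 and 22 copies, held no TIA1 peak. SET, PTMA, ANP32B and NPM1, which held TIA1 peaks, had 39, 21, 10 and 3. Nearly all copies were in the 3′ untranslated region, 20 of 21 in PTMA and 35 of 39 in SET. The other 1 in PTMA was in the 5′ untranslated region, and the other 4 in SET were in the coding part. The longest T run of each gene, in capitals, lay in that region in all 7 genes:
PTMA, from base 1099 of the transcript: aaaaggtttcTTTTTTTTTccttttttgt
SET, from base 1262: gtcTTTTTTTTTTTTTTTTTTTTTTTTccc
ANP32A, from base 1790: gtcggctgggTTTTTTTTTTcatacacccg
ANP32B, from base 1375: attattattaTTTTTTTTacattaggac
ANP32E, from base 1643: ttaccTTTTTTTTTTTTTTTTTTTgacta
NCL, from base 2705: tgtttttgTTTTTTTTTTTTTTgcgttcgt
NPM1, from base 1262: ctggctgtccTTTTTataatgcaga

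GCATG, the DNA form of the RBFOX2 element, was found in 3 of the 7 transcripts. SET had 3 copies, NCL 2 and ANP32A 1. PTMA, ANP32B, ANP32E and NPM1 had 0. Of transcripts of like length, at least 1 copy was held by 65.8% for PTMA, 72.5% for ANP32B, 94.8% for ANP32E and 79.2% for NPM1. That share was 90.6% for SET, 97.1% for NCL and 87.5% for ANP32A. The median count at these lengths was 2 for SET and ANP32A, 3 for NCL and ANP32E, and 1 for PTMA, ANP32B and NPM1. The sites are shown with the element in capitals, because they can be set beside the genes that held RBFOX2 peaks:
SET, base 903, coding: ggaagaggcaGCATGaggaaccaga
SET, base 1782, 3′ untranslated: ttctcctttgGCATGtttaattgtg
SET, base 2470, 3′ untranslated: acagttgctgGCATGtcttcattgg
ANP32A, base 1776, 3′ untranslated: agacgttgctGCATGtcggctgggt
NCL, base 2863, 3′ untranslated: tcactggagaGCATGgcaaagccag
NCL, base 3261, 3′ untranslated: aattagctggGCATGgtggtgtact

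The ANP32A copy was preceded by T, which makes TGCATG, and lay beside the longest T run of that transcript. TGCATG was held by 46.2% of transcripts of like length to ANP32A. Of the 4 genes with RBFOX2 peaks, SET and ANP32A thus held the element in their transcript and PTMA and ANP32E did not. Introns were not searched, and no hg19 sequence was used, so whether any of these letters lie under a peak was not determined. The 3′ untranslated regions, which hold the T runs shown, were 693 bases in PTMA, 1727 in SET, 515 in ANP32B and 575 in NPM1. The TIA1 sites of these genes, in the same order, ended 5659, 7159, 33245 and 24047 bases before the downstream edge of their spans. Each distance exceeded the length of that region, but the lengths are of spliced GRCh38 transcripts and the distances run to rounded hg19 edges. Copies outside that region were not compared, and whether a T run lies under a site was not tested.

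The genes fell into classes by the lists that held their peaks. PTMA and SET held peaks of both proteins. ANP32B and NPM1 held TIA1 peaks without RBFOX2 peaks, and ANP32A and ANP32E held RBFOX2 peaks without TIA1 peaks. NCL held no peak of either list across its 11 kb span on the minus strand. No peak of either protein lay on the opposite strand of any of the 7 spans.

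**Figure D1:**
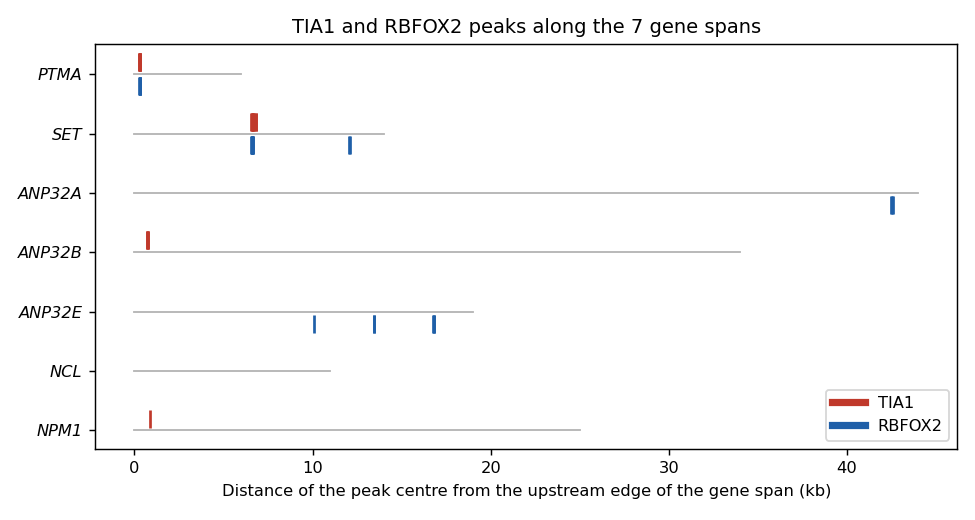
Position of each peak (tick, TIA1 above and RBFOX2 below each line) along the 7 gene spans (grey lines), in kb from the upstream edge of the span in the direction of transcription. The TIA1 ticks of PTMA, ANP32B and NPM1 lie within 1 kb of that edge, and the RBFOX2 ticks of ANP32A and ANP32E lie at least 10051 bases from it.

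TIA1 peaks of PTMA, ANP32B and NPM1 lay near the upstream end of the gene, and RBFOX2 peaks outside PTMA lay further along it. Of the 20 TIA1 peaks, 11 began within 1 kb of the upstream edge, against 5 of the 23 RBFOX2 peaks, all 5 in PTMA. The other 9 TIA1 peaks were in SET. Joined within 50 bases, the 11 peaks made 1 site each in PTMA, ANP32B and NPM1, and the 5 made 1 site. In PTMA the sites of both proteins began 240 bases from the edge. In SET the leading sites began 6527 bases (TIA1) and 6512 bases (RBFOX2) from it. The share over all peaks needs the edges of all genes and was not computed, so nothing is read from these counts. In ANP32A the RBFOX2 site ended 1363 bases before the downstream edge of a 44 kb span, and in ANP32E the strongest RBFOX2 site ended 2162 bases before that of a 19 kb span. The spans are rounded to whole kb, and exon, intron or untranslated location of the peaks in hg19 was not analysed here.

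PTMA held the TIA1 peak of highest fold among the 7 genes. Its 6 TIA1 peaks, 2 to 44 bases wide, abutted from base 232573240 to 232573341 on the plus strand of chromosome 2. Along the strand their log2 folds were 4.82, 4.83, 4.83, 4.86, 4.90 and 5.48, all with a −log10 p of 400. The fold thus increased step by step towards the downstream end, with its largest step before the last 13 bases. On the linear scale these folds ran from 28.2 to 44.5. They ranked between 5 and 29 among all 3215 TIA1 peaks by fold.

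RBFOX2 covered nearly the same bases of PTMA at lower folds. Its 5 peaks ran from 232573240 to 232573342, with log2 folds of 3.82, 3.89, 3.86, 3.91 and 3.97 along the strand. The first 3 had a −log10 p of 400, and the last had 61.1 after 79.6 for the fourth. The linear folds, 14.2 to 15.7, ranked between 887 and 1167 among 4227 RBFOX2 peaks. The PTMA site was therefore near the top of the TIA1 list by fold and well below the top of the RBFOX2 list by fold. By −log10 p, with ties at 400 ordered by fold, its peaks were near the top of both lists. They ranked between 1 and 7 for TIA1 and between 11 and 50 for RBFOX2. Of the 102 bases under TIA1 peaks and the 96 under RBFOX2 peaks, 95 were shared, 93.1% of the TIA1 and 99.0% of the RBFOX2 bases.

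SET held 9 TIA1 and 9 RBFOX2 peaks on the plus strand of chromosome 9. The TIA1 peaks formed 1 site from 131451527 to 131451841. Their log2 folds along the strand were 4.38, 4.58, 4.52, 4.84, 4.51, 4.30, 3.48, 3.43 and 3.16. The fold thus peaked inside the site, at bases 131451630 to 131451651, and was lowest in the last 3 peaks. The −log10 p was 400 in peaks 1 to 4 and in peak 7, and 57.7 to 70.4 in the other 4.

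The leading RBFOX2 site of SET began 15 bases upstream of the TIA1 site, at 131451512, and ended at 131451678. Its 7 peaks had log2 folds of 4.02, 4.08, 4.002, 4.06, 4.03, 3.92 and 3.33. The first 5 had a −log10 p of 400. Both profiles were lower at the downstream end, and the TIA1 site ran on for another 163 bases at log2 folds of 3.48 and less. Of the 313 bases under TIA1 peaks and 219 under RBFOX2 peaks in SET, 139 were shared, 44.4% of the TIA1 and 63.5% of the RBFOX2 bases.

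A second RBFOX2 site of SET lay 5355 bases downstream, at 131457034 to 131457096, with log2 folds of 3.10 and 3.26 and −log10 p of 38.1 and 37.5. It held no TIA1 peak and ended 1904 bases before the downstream edge of the span. RefSeq for GRCh38 gives SET 5 transcript starts, at 0, 369, 1648, 5798 and 6550 bases from the most upstream one. The leading sites lay 6527 bases (TIA1) and 6512 bases (RBFOX2) from the upstream edge of the rounded hg19 span. The distances of the starts and of the sites have different zero points, so they cannot be set against each other. The builds were not joined, so whether the site is at an alternative start was not determined.

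**Figure D2:**
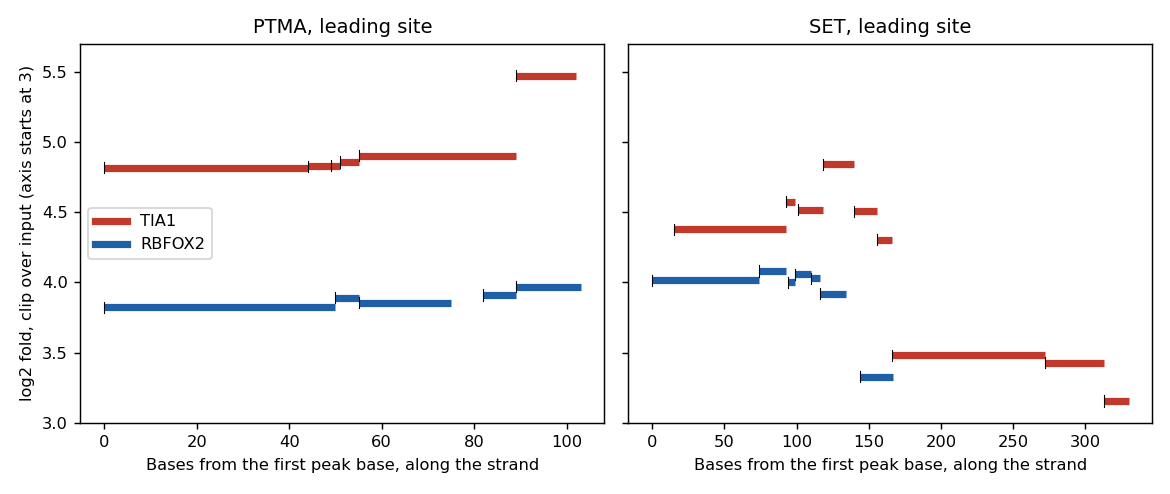
log2 fold (vertical axis, starting at 3) of each TIA1 and RBFOX2 peak against bases from the first peak base of the leading PTMA and SET sites. Each bar spans the width of 1 peak. In PTMA TIA1 lies between 4.82 and 5.48 above RBFOX2 at 3.82 to 3.97, and in SET both are lower at the downstream end.

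The folds of the proteins were set side by side where their peaks overlapped. In PTMA and SET 13 of the 20 TIA1 peaks of the 7 genes overlapped an RBFOX2 peak by at least 1 base on the strand, where 24.0% of all TIA1 peaks did. Among the 23 RBFOX2 peaks 12 lay over a TIA1 peak in this way, where 21.7% of all RBFOX2 peaks did. The overlapping peaks made 18 pairs, 8 in PTMA and 10 in SET, and TIA1 had the higher log2 fold in 18 of 18. Over all 1065 overlapping pairs of the lists that share was 54.0%. The genes were chosen for such peaks, and neighbouring pairs share peaks, so nothing is read from these counts.

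In PTMA the difference, TIA1 minus RBFOX2, had a median of 1.00 on the log2 scale over 8 pairs, and 7 of these lay between 0.94 and 1.05. The exception was the last pair, at 1.51, where a TIA1 peak of 13 bases lay within an RBFOX2 peak of 14 bases. In SET the median was 0.53 over 10 pairs, from 0.15 to 1.18. The offset between the proteins thus varied less over the PTMA pairs than over the SET pairs. Neighbouring pairs share peaks and no value per replicate was at hand, so this is description. The median over all 1065 pairs was 0.047. A log2 fold at least 1 higher in TIA1 was found in 4 of the 8 PTMA pairs and 1 of the 10 SET pairs, and in 5.45% of all pairs. Yield and depth of the separate immunoprecipitations are unknown, so a difference between the lists cannot be told apart from a difference in those.

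**Figure D3:**
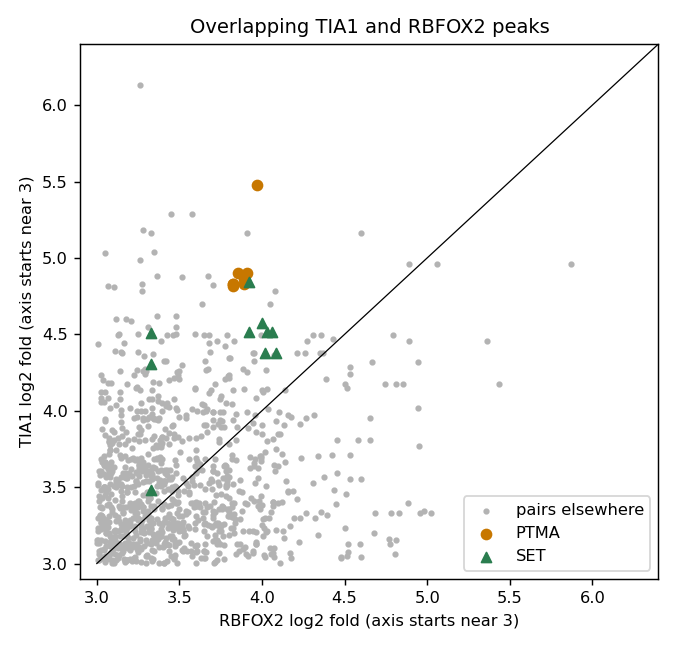
TIA1 log2 fold against RBFOX2 log2 fold for each overlapping pair of peaks, in PTMA (circles), SET (triangles) and elsewhere (grey), with the line of equal folds. All 18 PTMA and SET pairs lie above the line, and 54.0% of all pairs do.

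ANP32B and NPM1 held TIA1 peaks close to the upstream edge. The 4 ANP32B peaks lay between 100745661 and 100745755 on the plus strand of chromosome 9, with log2 folds of 3.24, 3.24, 3.18 and 3.25. Their −log10 p was 56.1, 55.9, 36.9 and 34.5 in the same order. The 4 folds were nearly equal, just above the authors' limit of 3 and under the median of the TIA1 list, while the −log10 p was well above the list's median of 7.36. NPM1 held a single TIA1 peak of 99 bases, at 170814855 to 170814953 on the plus strand of chromosome 5, with a log2 fold of 3.77 and a −log10 p of 40.5. That fold was above the TIA1 list's median of 3.36 and ranked 569 of 3215. These sites began 661 and 855 bases from the upstream edges of ANP32B and NPM1.

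ANP32A and ANP32E held RBFOX2 peaks on minus strands, with −log10 p far below those of PTMA and SET but around the median of 6.77 over all RBFOX2 peaks. In ANP32A 3 peaks lay between 69071363 and 69071521 on chromosome 15. Along the strand their log2 folds were 3.85, 3.86 and 3.55, and their −log10 p was 5.29, 3.48 and 6.77. The ANP32A folds were thus close to or below those of RBFOX2 in PTMA, with −log10 p at or below the median of the list.

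ANP32E had the most separate RBFOX2 sites of the 7 genes, 3, on chromosome 1. Read along the strand, its upstream site was a peak of 10 bases at 150198940 to 150198949, with a log2 fold of 3.08 and a −log10 p of 5.80. The next, at 150195547 to 150195566, held 2 peaks with log2 folds of 3.22 and 3.41 and −log10 p of 5.00 and 6.72. The most downstream, at 150192162 to 150192248, held 3 peaks with log2 folds of 4.04, 3.74 and 3.56 and −log10 p of 8.63, 6.46 and 7.25. The downstream site was the strongest of the 3, and its first peak was the only one of the 9 ANP32A and ANP32E peaks whose log2 fold passed 4.

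The order of the genes by their highest fold differed between the lists. By TIA1 it was PTMA (log2 fold 5.48), SET (4.84), NPM1 (3.77) and ANP32B (3.25). By RBFOX2 it was SET (4.08), ANP32E (4.04), PTMA (3.97) and ANP32A (3.86). The TIA1 order covered a range of 2.23 on the log2 scale and the RBFOX2 order one of 0.22. With no value per library, neighbours in either order cannot be separated from the spread between replicates.

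**Figure D4:**
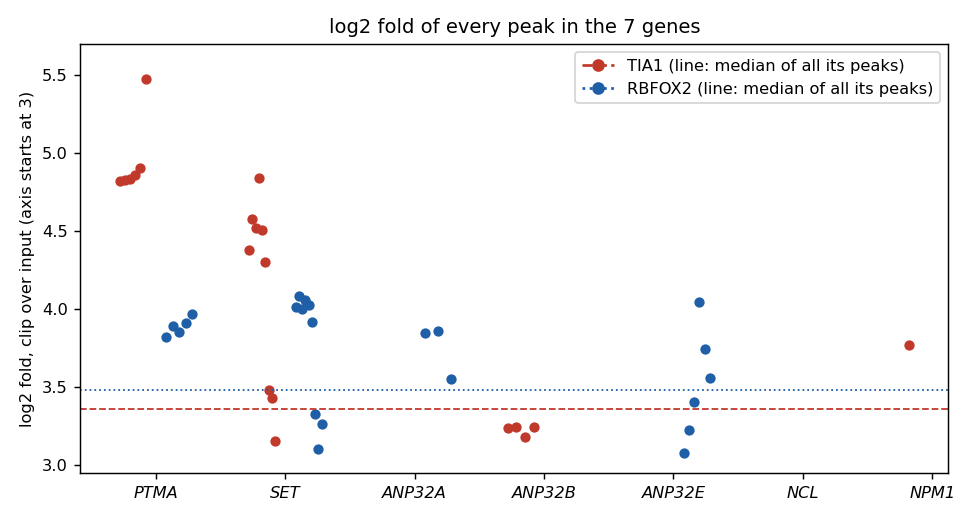
log2 fold of every peak (points, in order along the strand) in the 7 genes, TIA1 left of RBFOX2 for each gene, on an axis that starts at 3. Lines mark the medians of all TIA1 peaks (3.36, dashed) and all RBFOX2 peaks (3.48, dotted). PTMA TIA1 peaks lie between 4.82 and 5.48, and ANP32B TIA1 peaks lie under the TIA1 median.

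Against the whole lists, the 20 TIA1 peaks had a median log2 fold of 4.44 where all TIA1 peaks had 3.36, and the 23 RBFOX2 peaks had 3.86 where all RBFOX2 peaks had 3.48. Log2 folds of 4 or more were found in 12 of the 20 TIA1 peaks, all in PTMA and SET, and in 9.21% of all TIA1 peaks. They were found in 6 of the 23 RBFOX2 peaks, 5 in SET and 1 in ANP32E, and in 19.3% of all RBFOX2 peaks. The limit of 400 in −log10 p was met by 11 of the 20 TIA1 peaks and 2.02% of the list, and by 8 of the 23 RBFOX2 peaks and 0.686% of the list. All of these were in PTMA and SET. Without PTMA the TIA1 median was 3.63.

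**Figure D5:**
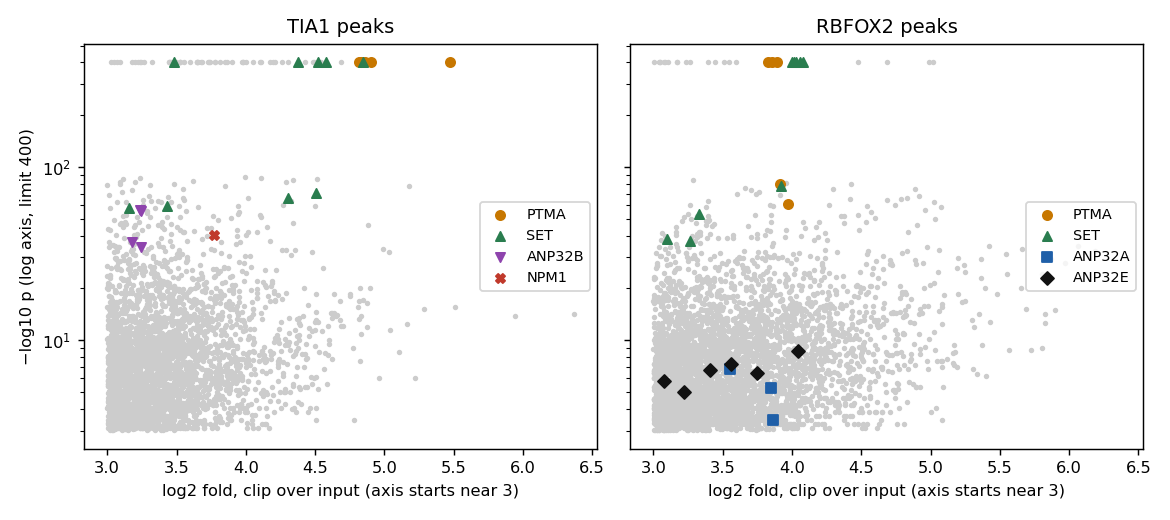
−log10 p (log axis, limit 400) against log2 fold for all TIA1 peaks (left) and all RBFOX2 peaks (right), in grey, with the peaks of the named genes marked. PTMA and SET reach 400 in both panels, and ANP32A and ANP32E lie between 3.48 and 8.63.

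Many of the peaks, mostly in PTMA and SET, were short. Of the 20 TIA1 peaks 12 were under 20 bases wide, as were 12 of the 23 RBFOX2 peaks, against 18.8% of all TIA1 and 9.79% of all RBFOX2 peaks. Joined within 50 bases, the 43 peaks became 4 TIA1 and 7 RBFOX2 sites. Joined sites with at least 6 peaks were 14 of 2413 in TIA1, which include PTMA and SET, and 55 of 2749 in RBFOX2, which include SET with 7. Short abutting peaks repeat the same site, so counts of peaks here are not counts of binding events.

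The sites most like those of PTMA and SET were sought among the 599 joined sites elsewhere that held peaks of both proteins, by distance in the plane of the highest TIA1 and highest RBFOX2 log2 fold. Nearest to PTMA (5.48 and 3.97) was a plus-strand site on chromosome 10 at 102120893 to 102121084, with 5.29 and 3.86. Next were chromosome 15 at 77224091 to 77224300, with 4.88 and 3.88, and chromosome 3 at 55521017 to 55521373, with 4.83 and 3.97. Nearest to SET (4.84 and 4.08) were minus-strand sites on chromosome 1 at 120455176 to 120455260, with 4.78 and 4.08, and on chromosome 6 at 75963982 to 75964206, with 4.83 and 4.18. The chromosome 3 site was the next in order for SET too, with 4.83 and 3.97. None of these 5 sites reached a −log10 p of 400 in either list, and their highest was 59.9 for TIA1 and 30.8 for RBFOX2, both on chromosome 15. Of all 601 joined sites with peaks of both proteins, 3 reached 400 in both lists, namely PTMA, SET and 1 other. Of the 599 sites, 1 had a higher TIA1 fold than PTMA and 9 than SET, while 113 had a higher RBFOX2 fold than PTMA and 73 than SET.

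The edges of the spans decided little. The closest peak inside a span lay 240 bases from its edge, in PTMA, with a TIA1 log2 fold of 4.82 and an RBFOX2 log2 fold of 3.82. The closest outside on the same strand was a TIA1 peak of 2 bases 18.1 kb from SET, with a log2 fold of 3.05 and a −log10 p of 3.97. The next were near ANP32E, a TIA1 peak at 29.1 kb with a log2 fold of 3.41 and an RBFOX2 peak at 29036 bases with 3.19. For PTMA, ANP32A, ANP32B, NCL and NPM1 no peak lay closer than 315.8 kb outside the span. All members were peaks that had passed the authors' limits, and peaks under those limits were not seen.

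Several of these genes have named pseudogenes, from which their reads may not be separable. The likeness of these copies to the genes was not measured. GENCODE names 45 pseudogenes after NPM1, 19 after SET, 7 after PTMA, 3 after ANP32B, 2 after NCL, 1 after ANP32A and 0 after ANP32E. No label used here says how reads that match several places were treated, so the values of NPM1, SET and PTMA are uncertain to that extent.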

How the data were processed

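Peaks of TIA1 and RBFOX2 eCLIP in HEK293T cells were analysed, from 2 clip and 2 input libraries per protein. The authors deposited 1 peak list per protein that joins both replicates, per the labels. The deposited lists have no header: a column that never falls below 3 and stops at 400 was taken as −log10 of a p-value, and another as a log2 fold of clip over input. The submitters' processing notes name UMI-tools 1.0.0, cutadapt 1.14, STAR 2.4.0i, SAMtools 1.6 and the build hg19. Neither peak caller nor depth is given in the sources used here. Coordinates are 1-based hg19.

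Peaks were assigned by overlap with each span on its strand. Peaks within 50 bases were joined, keeping the highest fold and −log10 p. Overlap meant 1 shared base. Transcripts were from GENCODE release 29 and start sites from RefSeq, both GRCh38, and their coordinates were not used with the peaks. The acidic codon runs of ANP32E and NCL are not reported here. A further list of histone chaperone genes, which needs an hg19 annotation, was not analysed here. The work used matplotlib 3.10.9, scipy 1.17.1, numpy 2.4.6, pandas 2.3.3 and Python 3.11.15. The counting steps were checked on simulated peaks. No test was run on the members. The members, lists and alternatives were chosen with earlier results of these data known. All 7 genes are named, with every peak where a gene had at most 5 per list and otherwise those of highest −log10 p and fold, the first and last, and the range; the folds along PTMA and SET and all ANP32E peaks were added after their values were seen.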

Additional observations from a re-analysis of the deposited data

How the results depend on the processing

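The 7 summary values of the 7 genes were recomputed under 7 changes of processing each, and 8 where overlap was involved. Counts, shares and folds of peaks that passed the lists' limits cannot change sign, and all 18 pairs had the higher fold in TIA1, so only sizes are compared. A log2 fold of at least 4 left 12 TIA1 and 6 RBFOX2 peaks. It brought the overlapping share to 25% of TIA1 and 83.3% of RBFOX2 peaks, and the RBFOX2 median log2 fold to 4.04. The overlapping share of all peaks at this limit was not computed, so these shares have no like value beside them. The median difference over pairs, TIA1 minus RBFOX2, was 0.46 against 0.95 without that limit. The limit removed all RBFOX2 peaks of PTMA, whose log2 folds of 3.82 to 3.97 lay just under it. Joining peaks within 50 bases left 4 TIA1 and 7 RBFOX2 sites, with an overlapping share of 50% of TIA1 and 28.6% of RBFOX2 sites. Over the whole lists 601 joined sites held both proteins, beside 2413 TIA1 and 2749 RBFOX2 sites, but the overlapping share of all joined sites was not computed. The median difference was 1.13 over 2 pairs, where a joined site takes its highest fold. Without peaks under 20 bases, 8 TIA1 and 11 RBFOX2 peaks remained. Leaving out SET left 11 TIA1 and 14 RBFOX2 peaks. Values under a −log10 p of at least 5, peak midpoints inside the span, leaving out PTMA and overlap of at least 50% of each peak moved by less than 1.5 times for counts, and otherwise stayed within the 95% interval of the main value; without PTMA the median difference was 0.53. These intervals take peaks as independent, which neighbouring peaks are not. No paired analysis was possible because the deposited lists merge the replicates of a protein, which also prevents leaving out single libraries.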
